A study of Drosophila melanogaster with 4 samples.

Results

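The small subunit of the cytoplasmic ribosome binds messenger RNA, scans for the start codon and decodes the message. Each of its proteins is encoded by a separate gene, and the genes of the small-subunit ribosomal proteins of Drosophila are described here. They were the rows of the GRO-seq table whose symbol begins with RpS and a digit, plus sta (stubarista, the RpSA protein), without the duplicate genes RpS5a, RpS5b, RpS14a, RpS14b, RpS19a, RpS19b, RpS28a and RpS28b. The rule gave 31 of 16612 genes. No row had the symbol sop, a name that the table lists among the aliases of RpS2, so string of pearls was counted as RpS2. Of the 31 genes, 29 had a mean of at least 1 FPKM (fragments per kilobase of the transcript's span, introns included, scaled to the library's reads). RpS10a was listed at 0 in both libraries, and RpS28-like had 0.36 FPKM in one library and 0 in the other.

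The study profiled nascent RNA in unperturbed Drosophila S2 cells, a hemocyte-like line labelled as derived from embryos of 20 to 24 h and grown at 25 °C. Nuclei were allowed to extend engaged transcripts with bromouridine, and the labelled RNA was captured. In GRO-seq all such RNA was sequenced (2 libraries, named Sample3 and Sample4 after the columns of the table), and in 5'GRO-seq only ends that had carried a cap (2 libraries, replicates 1 and 2). All 4 libraries share the line and its culture, and the labels name no treatment, genotype or clone, nor whether replicates came from separate cultures. Differences between libraries of a kind may therefore be technical, and no test across samples was made. Of 13 hemocyte markers 12 had a mean of at least 1 FPKM, as did 8888 of all 16612 genes. They include the serpent gene srp (mean 60.4 FPKM) and hemolectin, Hml (68.5 FPKM). Pxn, Sr-CI, He and eater were lower, with means from 3.21 to 7.51 FPKM, beside a median of 12.3 FPKM over those 8888 genes. NimC1, a phagocytic receptor, was at 0.926 and 0.757 FPKM. The 3 fat body markers summed to 0 and 0.151 FPKM, and the 3 muscle markers to 0.233 and 0.303 FPKM. The 3 neuron markers summed to 10.5 and 10.6 FPKM, nearly all of it from elav at 10.1 FPKM in each library, and the 3 germline markers to 2.00 and 2.17 FPKM, mostly from bam.

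As background, ribosomal protein genes are short, intron-containing genes that are transcribed in every growing cell. In flies their promoters usually lack the common initiator and carry a polypyrimidine start element, the TCT motif, which the title of the series names. Many of them also hold small nucleolar RNAs (snoRNAs) in their introns, which are released from the spliced intron and guide modification of ribosomal RNA. C/D snoRNAs guide methylation and H/ACA snoRNAs guide pseudouridylation. Sequences at the start sites were not analysed here.

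The small-subunit genes stood near the top of the nascent RNA levels. Their median was 451 FPKM in Sample3 and 438 FPKM in Sample4, against 1.98 and 1.38 FPKM over all 16612 genes. By mean level 28 of the 31 (90.3%) were among the highest 5% of all genes and 12 (38.7%) among the highest 1%. The large-subunit ribosomal protein genes, 53 rows, had similar medians of 372 and 495 FPKM. The mitochondrial small-subunit genes, 28 rows for the ribosome inside mitochondria, had 10.4 and 10.2 FPKM. These comparisons of levels are descriptions, since genes are not replicates. In bulk libraries, fewer cells of a type and less RNA per cell cannot be told apart.

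Members at the head and beak of the subunit, where tRNAs and the entering message are held, had medians of 443 and 313 FPKM over 12 genes. Members of the body and platform had 538 and 585 FPKM over 18 genes. RpS28-like, which has no assigned place, was in neither group. RpS10a, listed at 0 in both libraries, was counted among the head genes, and reads of nested snoRNAs enter the medians of both groups.

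The highest member was RpS26, whose protein lines the exit channel of the message (accession NM_165252, dm3 2L, 18442507 to 18443228, minus strand). Its levels of 1202 FPKM (Sample3) and 1867 FPKM (Sample4) gave 1535 ± 470 FPKM (SD, n = 2), which ranked 78 among all genes. Next came RpS13, a protein of the body that contacts the large subunit, with 584 and 1251 FPKM (917 ± 472, SD, n = 2). RpS24 of the body had 538 and 1266 FPKM (902 ± 515, SD, n = 2). The order within the family depended on the library: among the members RpS13 ranked 6 in Sample3 and 3 in Sample4, and RpS24 ranked 12 and 2.

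Also among the 6 highest was sta, whose protein is the homologue of the laminin receptor precursor, with 627 and 1174 FPKM (901 ± 387, SD, n = 2). RpS10b, the gene that encodes the beak protein RpS10 in these cells, had 469 and 1233 FPKM (851 ± 540, SD, n = 2). RpS25, a head protein required for some forms of internal initiation in yeast and mammals, had 517 and 1125 FPKM (821 ± 430, SD, n = 2). All 3 were higher in Sample4, and their order relative to one another lies within the spread between the libraries.

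At the other end, RpS15Ab had 32.4 and 15.6 FPKM (24.0 ± 11.9, SD, n = 2) and its copy RpS15Aa had 109 and 79.7 FPKM (94.5 ± 20.9, SD, n = 2). RpS15Aa was thus the higher copy in both libraries, but reads of near-identical copies may be split between them, so both levels are uncertain. Of the RpS10 genes, RpS10b carried the reads and RpS10a, which lies inside the tau gene on the opposite strand, was listed at 0. The host gene tau was itself at 0.054 and 0.024 FPKM.

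**Figure D1:**
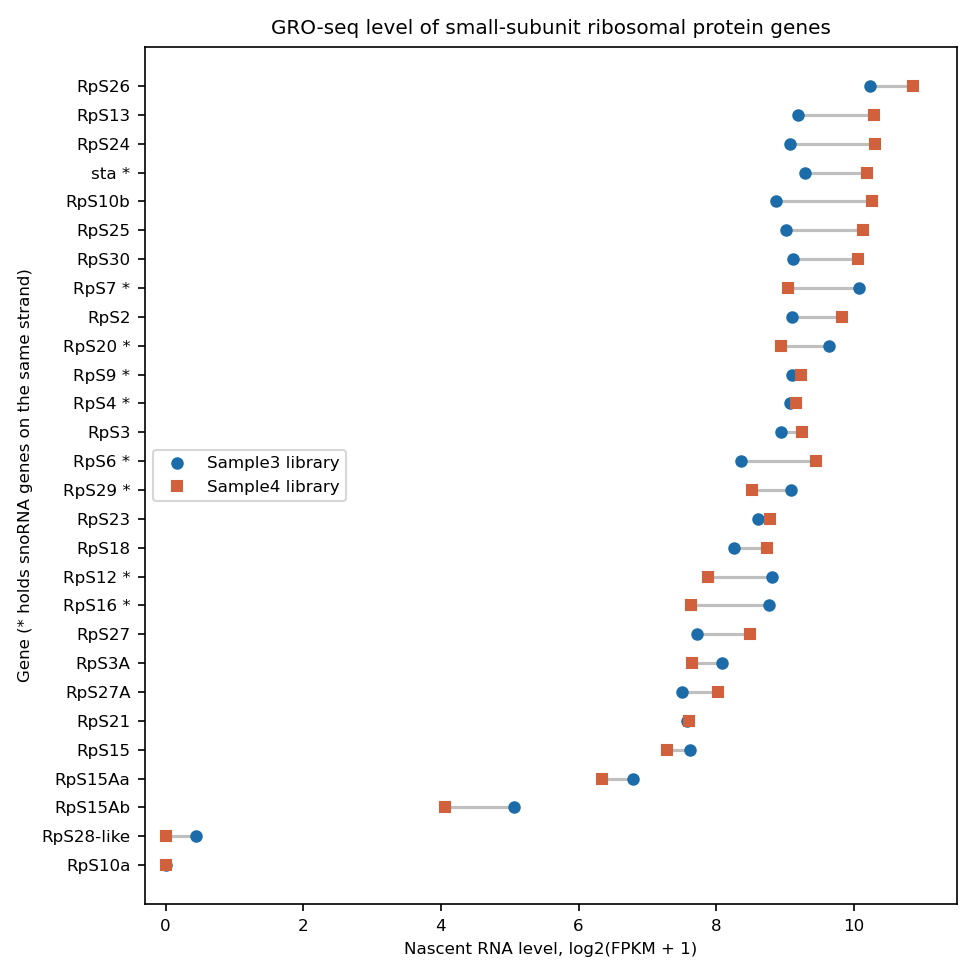
Nascent RNA level of 28 of the genes as log2(FPKM + 1), sorted by mean, with circles for Sample3 and squares for Sample4 and a grey line between them. RpS26 is highest and RpS28-like and RpS10a lie at or near 0; RpS15Ab and RpS15Aa lie below the remaining 24 genes shown.

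The recovered read counts behind these values ranged from 154 reads (RpS15Ab) to 15870 (RpS7) in Sample3 and from 28 to 3563 in Sample4 among the 29 transcribed members. The total behind the normalisation was 6572485 reads in Sample3 and 2474827 in Sample4. Reads of overlapping genes count for each of them: the protein-coding rows of Sample4 sum to 2768985 reads, more than that total, so the members are given no share of a library.

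The libraries gave related but not equal orders of the members. For the 29 members with 1 FPKM or more in each library, Pearson's r of log2(FPKM + 1) was 0.86 and Spearman's rho 0.77 (across genes, which are not independent replicates). Sample4 was higher for 17 (58.6%) and lower for 12, where 42.3% of all 8417 genes of at least 1 FPKM in both were higher, and 43.7% of the 7666 protein-coding ones. Among the 145 other protein-coding genes of mean FPKM of at least 100, which are nearer to the members in level, 74.5% were higher in Sample4, with a median log2 difference of 0.37, so the members' share was above that of all genes and below that of highly transcribed ones. The median log2 difference, Sample4 minus Sample3, was 0.14 with an SD of 0.76 over members, beside -0.11 and 0.73 over all such genes. Ratios of 2-fold or more in either direction occurred at 8 members. The share of all genes with such ratios was not counted, and the SDs above are close, so these ratios describe the spread between libraries only. RpS10b was 2.63-fold and RpS24 2.36-fold higher in Sample4, RpS25 and RpS13 2.18-fold and 2.14-fold, and RpS6, the target of S6 kinase, 2.14-fold. RpS16, a head protein that contacts the tRNA in the P site, was 2.21-fold lower with 436 and 197 FPKM. RpS7 was 2.03-fold and RpS15Ab 2.07-fold lower.

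The direction was also set against the presence of snoRNA genes inside the member. Sample4 was the lower library for 8 of the 12 hosts, whose median log2 difference was -0.28, and of the 17 transcribed members without a snoRNA 13 were higher, with a median of 0.52. Higher in Sample4 were 42.3% of all genes of at least 1 FPKM in both libraries. Among other protein-coding genes of at least 100 FPKM it was 74.5%, and the members without a snoRNA are near that share. The hosts include RpS4, RpS6, RpS7, RpS9, RpS12, RpS16, RpS20, RpS29 and sta. Together the 12 hold 28 snoRNA genes, 8 named as C/D, 19 as H/ACA and 1 of unnamed class, and 27 of the 28 were lower in Sample4. The share of all snoRNA genes lower in Sample4 was not counted, so whether this is particular to those inside members is unknown. Reads of a snoRNA also count for its host on the same strand. They made up a median of 38.4% of the host's reads in Sample3 (0.577 to 72.1%) and 11.9% in Sample4 (0.169 to 36.9%).

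RpS12, known in flies for its part in cell competition, was the extreme case. Its snoRNAs snoRNA:Me28S-A774a and snoRNA:Me28S-A774b had 4218 and 2143 FPKM in Sample3 but 421 and 208 FPKM in Sample4. RpS12 itself had 451 and 236 FPKM, and 126 and 204 FPKM once snoRNA reads were subtracted, so that the higher library changed. Here and below, levels without snoRNA reads were still divided by the host's full span. They therefore understate the level of a host outside its snoRNA genes, whereas ratios between the libraries are not affected. RpS7 holds 7 H/ACA snoRNAs, 5 of them named for the same position of the small ribosomal RNA. It had 1075 and 529 FPKM with their reads and 351 and 334 FPKM without.

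RpS16 holds 5 snoRNAs, and without them stood at 187 and 161 FPKM. RpS9, a protein at the entry of the message, had 546 and 600 FPKM as deposited and 285 and 481 FPKM without. RpS29 went the other way: its snoRNA:Psi18S-1275 was the 1 nested snoRNA higher in Sample4 (568 and 852 FPKM), and without it RpS29 had 462 and 245 FPKM. In sta the 2 snoRNA genes overlap, so reads in the overlap were subtracted from both; the remainder was 499 and 1157 FPKM.

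After the subtraction 6 of the 12 hosts were higher in Sample4 and 6 lower, with a median log2 difference of 0.03. Pearson's r between the libraries over the 29 genes was then 0.92 and Spearman's rho 0.89. The member medians without snoRNA reads were 313 FPKM in Sample3 and 425 FPKM in Sample4.

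**Figure D2:**
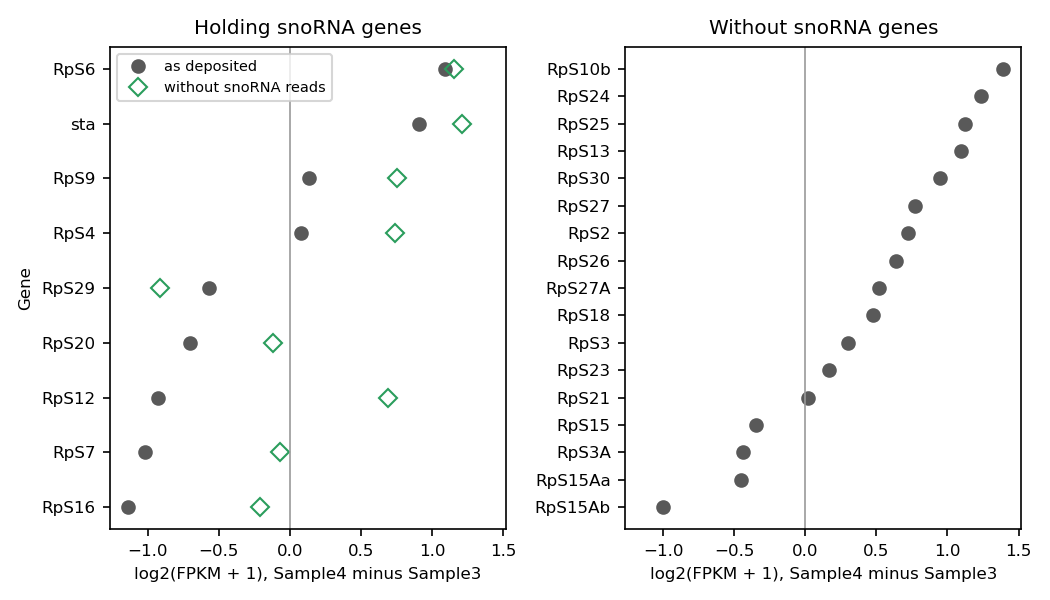
Difference between the GRO-seq libraries in log2(FPKM + 1), Sample4 minus Sample3, for 9 of the members that hold snoRNA genes (left) and the 17 transcribed ones that do not (right). Filled circles are the deposited values and open diamonds the values without snoRNA reads; RpS12 crosses 0 when these reads are removed, RpS29 moves further below it, and 13 of the genes on the right lie above 0.

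The difference was also set against span. Of the 10 members with spans under 1000 bp 8 were higher in Sample4 (median log2 difference 0.79), and 1 of these 10 holds a snoRNA. In the same class of span 42.6% of all 949 protein-coding genes were higher in Sample4, with a median of -0.13. Of the 11 members of at least 1000 bp but under 1500 bp 5 were higher (median -0.19), 6 of them hosts, beside 38.5% of protein-coding genes of that span. Of the 8 members of 1500 bp or more 4 were higher (median -0.14), 5 of them hosts, beside 45.0% of protein-coding genes. The share and the median did not change steadily with span. Over the 29 members, span and log2 difference had a Pearson's r of -0.34 and a Spearman's rho of -0.35. The part of span, snoRNA reads and other properties of the libraries in these differences was not tested.

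RpS27A, which encodes a fusion of ubiquitin with a head protein, shares its reads with another gene. Ip259 begins at the same annotated base on the same strand and spans the leading 1252 bp of the 2104 bp of RpS27A. Ip259 had 95.3 and 77.1 FPKM and RpS27A 181 and 260 FPKM. Over the remaining 852 bp RpS27A had 307 FPKM in Sample3 and 529 in Sample4. RpS23, a protein of the decoding centre with 390 and 438 FPKM, holds the microRNA gene mir-308, listed at 41.7 and 26.1 FPKM.

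Start sites were called by the authors in each 5'GRO-seq library by itself, as intervals of fixed width whose centre is taken as the start. The lists hold 6782 sites from 13979543 reads in replicate 1 and 9387 sites from 6710787 reads in replicate 2. The approximate enrichment (IP) efficiency reported with the lists was 36.87 in replicate 1 and 20.89 in replicate 2, so they also differ in this measure. A site within 100 bp of the annotated 5' end was called at 22 of the 29 transcribed members (75.9%) in replicate 1, where 42.8% of 8888 genes of mean FPKM of at least 1 had one. In replicate 2 it was called at 13 (44.8%), where 26.3% of these genes had one. Among 145 other protein-coding genes of at least 100 FPKM the shares were 47.6% and 27.6%. The large-subunit genes, with 50 transcribed, had 74.0% and 36.0%. Calls had to exceed the GRO-seq control 4-fold, so the lack of a call leaves unknown whether a start was used.

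Where both lists held a site, it was at the same base. This was so for 12 of 12 members, beside 65.4% of the 1697 genes with a site in both lists, 72.2% of 18 large-subunit genes and 82.9% of 35 other genes of at least 100 FPKM. A site in both lists was present at 41.4% of the transcribed members and 19.1% of all 8888 genes.

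Most of these starts lay a few bases inside the annotated end. In replicate 1, 18 of 22 (81.8%) were within 10 bp of it, beside 49.3% of the sites at all genes. In replicate 2, 11 of 13 (84.6%) were, beside 45.8%. The median offset was 5 bp downstream in each list. Without RpS15Ab and RpS18 the offsets ran from 2 to 12 bp downstream in replicate 1. The large-subunit genes were near the members, with 78.4% of 37 sites and 77.8% of 18 within 10 bp. Other genes of at least 100 FPKM had 65.2% and 55.0% of their sites within 10 bp, and mitochondrial small-subunit genes 55.0% of 20 and 33.3% of 9.

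In dm3 coordinates, RpS26 started at 18443223 on the minus strand of 2L in both lists, 5 bp inside its annotated end. RpS13 (2L, minus strand) started at 8364593, 3 bp inside, and RpS24 (2R, minus strand) at 18528919, 5 bp inside. The start of RpS6 (X, minus strand) was at 7795362, 2 bp inside, and that of RpS3 (3R, plus strand), a head protein at the entry of the message, at 19184541, 7 bp inside. These 5 genes had 328 to 1202 FPKM in Sample3, where RpS26 ranked 1 and RpS6 ranked 20 among the members.

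RpS29 (3R, plus strand), a small zinc-binding head protein, started at 5603827, 8 bp inside its annotated end. RpS23 (2R, minus strand) began at 10104080, 3 bp inside. RpS21 (2L, plus strand), a protein known in flies to bind that of sta, began at 2856117, RpS27A (2L, plus strand) at 10408358 and RpS15Aa (X, minus strand) at 13231665, each 6 bp inside. Since Ip259 shares its annotated base with RpS27A, that start belongs to either. The lists gave the same base for each of these genes although the levels in the GRO-seq table differed, as at RpS15Aa with 109 and 79.7 FPKM.

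Both remaining genes with a site in both lists were displaced. RpS18 (2R, plus strand, 16151575 to 16152353), a head protein with 305 and 425 FPKM, started at 16151493, 82 bp outside its annotated end, according to both lists. RpS15Ab (2R, plus strand, 6709181 to 6709904) started at 6709255, 74 bp inside, in both lists. The table holds 1 transcript per gene, so other annotated starts were not considered.

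A site in replicate 1 alone was found at 10 members, between 2 and 12 bp inside the annotated end. They include RpS15 and RpS20 at 2 bp, RpS2, RpS3A, RpS25 and RpS27 at 4 bp and RpS4 at 9 bp. RpS3A is the 1 member on chromosome 4 (86823 to 87833, minus strand) and began at 87829. RpS16 had its start in replicate 2 alone, at 18493636 on 2R, 4 bp inside. Level was set against the presence of a call: the 7 transcribed members without one in replicate 1 had a median of 546 FPKM in Sample3, and the 22 with one 366 FPKM. Of the 7, 5 are snoRNA hosts, and without snoRNA reads, with full spans kept, these medians were 351 and 314 FPKM. Of the 17 transcribed members without snoRNA genes 15 had a call in replicate 1, and of the 12 hosts 7. In replicate 2 these numbers were 10 and 3.

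**Figure D3:**
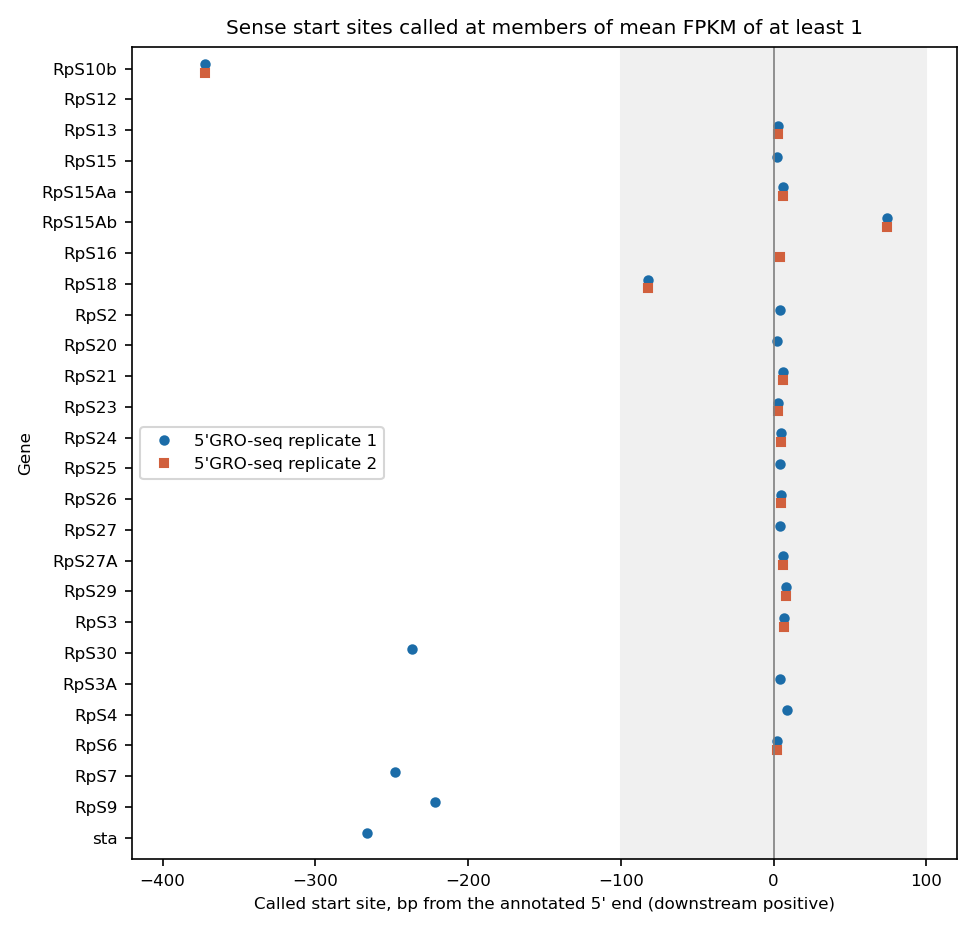
Position of called sense start sites relative to the annotated 5' end in bp, downstream positive, at 26 transcribed members, with circles for 5'GRO-seq replicate 1 and squares for replicate 2; the grey band marks 100 bp on each side. Most points lie just right of 0, RpS18 and RpS15Ab are displaced at -82 and 74 bp in both lists, and 5 genes have a site between -222 and -372 bp.

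A group of 5 members had a sense site 222 to 372 bp upstream of the annotated end and none at it in replicate 1. This is 17.2% of the 29 members, beside 1.51% of the 8888 genes, 3.45% of other genes of at least 100 FPKM and 0 of 50 large-subunit genes. They are RpS9 (222 bp upstream), RpS30 (237 bp), RpS7 (248 bp), sta (266 bp) and RpS10b (372 bp). RpS30 encodes a body protein made as a fusion with a ubiquitin-like protein and had 556 and 1073 FPKM. All 5 had at least 469 FPKM in each library.

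RpS10b (X, plus strand, 19492458 to 19493108) was the 1 gene of the group with the site in both lists, at 19492086 in each; in replicate 2 it was 3.45% of members, beside 2.49% of genes. The sites of the others lay at 9504627 on 3L for RpS9, 16676319 and 26034664 on 3R for RpS30 and RpS7, and 1377322 on X for sta. None of the 5 has an opposite-strand gene start within 1000 bp upstream. Whether the upstream sites belong to other transcripts of the same genes was not tested.

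Sites inside the members differed between the lists. Replicate 1 had 0 sense sites more than 100 bp inside a member, and replicate 2 had 8. The share of all genes with such a site was not counted. The replicate 2 list is also longer, with 9387 sites against 6782, and required fewer reads, 14 against 20. Of these 8, 6 lay exactly 2 bp inside the annotated 5' end of a nested C/D snoRNA. Among them were snoRNA:Me28S-A774a and snoRNA:Me28S-A774b in RpS12, snoRNA:Me28S-G2173 in RpS16 and snoRNA:Me28S-G3253 in RpS9. Thus 6 of the 8 C/D snoRNAs in members carried a site in replicate 2, beside 28.7% of all 108 C/D snoRNA genes, and 0 carried one in replicate 1, beside 3.7%. None of the 19 H/ACA snoRNAs in members did in either list, beside 0 and 2.63% of 114 such genes. Whether the sites at C/D snoRNAs are capped starts or 5' ends of RNA released from introns was not tested.

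Over the whole table, 27 of 31 such sites at C/D snoRNAs in replicate 2 were at the same 2 bp. A C/D snoRNA of a member without a site was snoRNA:Me28S-G980 in sta, at 2184 and 248 FPKM. RpS9 and RpS12 had no call at their own annotated end in replicate 2, whereas RpS16 had both. One of the other 2 internal sites was in RpS27, a zinc-binding protein of the body, 1121 bp inside, where the table has no snoRNA.

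**Figure D4:**
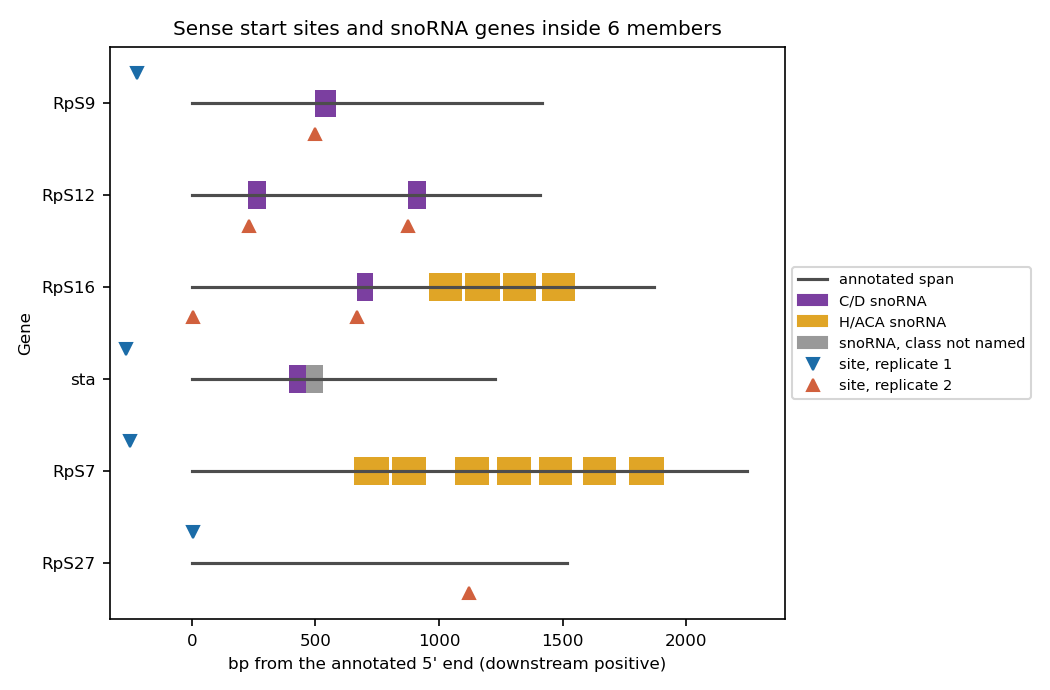
Annotated spans of 6 members as lines, in bp from the 5' end, with C/D snoRNA genes in purple, H/ACA snoRNA genes in yellow and sense start sites of replicate 1 (triangles pointing down) and replicate 2 (pointing up). The replicate 2 triangles stand at the left edge of C/D boxes in RpS9, RpS12 and RpS16, and no triangle stands at a yellow box.

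On the opposite strand, 14 of the 29 transcribed members (48.3%) faced an annotated gene whose 5' end lay within 1000 bp upstream, beside 41.1% of the 8888 genes and 64.0% of large-subunit genes. The distances ran from 36 to 852 bp with a median of 431.5 bp. Every partner had a lower mean than its ribosomal protein gene, as most genes would have beside members of such level. The median mean of the partners was 10.4 FPKM, beside 12.3 FPKM over the 8888 genes. The highest was 34.4 FPKM, for CG17271 beside RpS20.

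The pair with the most similar levels was RpS15Ab and Lsm10, which encodes a subunit of the U7 particle of histone RNA processing. Their annotated ends are 36 bp apart, and Lsm10 had 19.9 and 8.20 FPKM, so that the ribosomal protein gene had 1.71 times its mean. No start was called at Lsm10 in either list. In the pair RpS13 and CSN8, 259 bp apart, the member had 83.4 times the mean of CSN8, a subunit of the COP9 signalosome (14.5 and 7.50 FPKM). CSN8 began 32 bp inside its annotated end, at 8364887, in both lists, and its start and that of RpS13 were 294 bp apart by these positions.

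Starts of the partner were at the same base in both lists in 3 further pairs, among them RpS16 and RpS12. CG4294 started 4 bp inside its end, 464 bp from that of RpS16, and the adenosine kinase gene AdenoK 24 bp inside its end, 688 bp from that of RpS12. CG4294 had 14.5 and 15.8 FPKM, and AdenoK 13.6 and 14.8 FPKM. At RpS12 no site was called at the annotated end of the ribosomal protein gene itself in either list, although it had 24.2 times the mean of AdenoK.

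Partners with a start in replicate 1 alone were Nup37 of the nuclear pore beside RpS27, CG15747 beside RpS15Aa and CG3104 beside RpS21. A site 116 bp inside the annotated end of Nup37, outside the window, was called in replicate 2. The partners without a site included CG4820 beside RpS25, CG17271 beside RpS20, CG4927 beside RpS15, plu beside RpS18 and bys beside RpS6. The last is a pair within one pathway, since bys encodes bystin, an assembly factor of the small subunit. Its 5' end is 549 bp from that of RpS6, and it had 10.4 and 9.17 FPKM against 328 and 701 FPKM. The gene plu, which controls DNA replication in the early embryo, was listed at 0 in both libraries beside RpS18 at 305 and 425 FPKM.

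Called opposite-strand sites within 1000 bp upstream were present at 9 members (31.0%) in replicate 1, beside 28.8% of the 8888 genes, and at 5 (17.2%) in replicate 2, beside 17.3%. These shares are near the background. At 7 of the 9 the site was that of the annotated partner. The other 2, each in replicate 1 alone, had no annotated opposite gene within 1000 bp: a site 211 bp upstream of RpS24, at 18529135, and a site 786 bp upstream of RpS23, at 10104869, both on 2R.

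**Figure D5:**
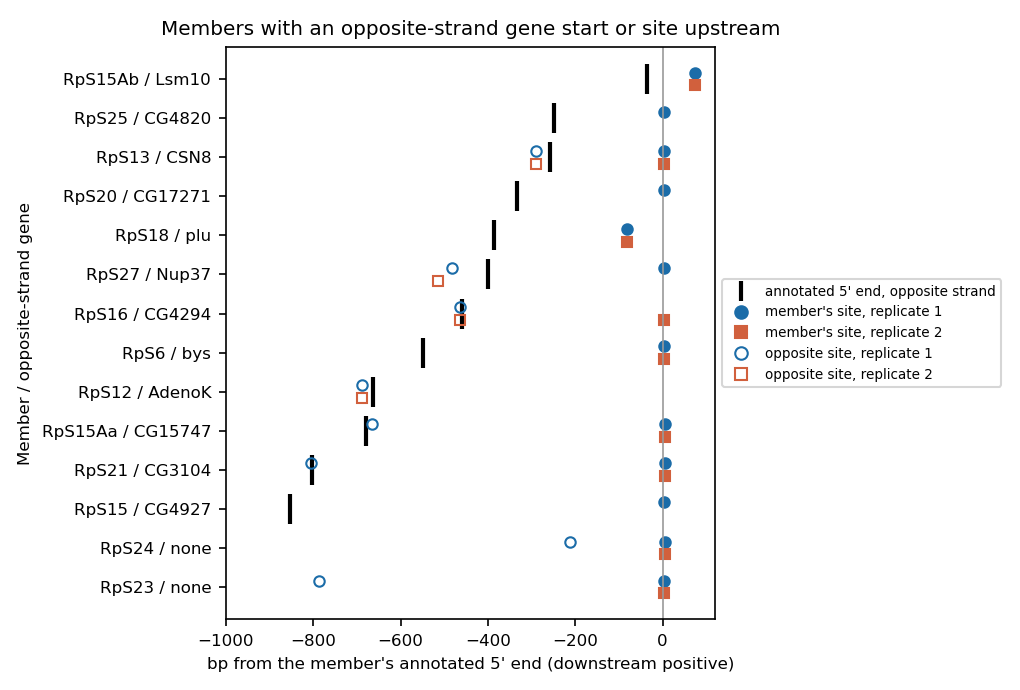
Of the members, 12 with an opposite-strand gene start within 1000 bp upstream, and 2 with a site but no such gene, in bp from the member's annotated 5' end. Black bars are annotated ends of the opposite gene, open symbols opposite-strand sites and filled symbols the member's own sites, circles for replicate 1 and squares for replicate 2; in RpS13, RpS16 and RpS12 both open symbols coincide.

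Opposite-strand genes at the 3' side were also present. The gene Zmynd10 ends 1 bp beyond RpS12 and had 0.091 and 0.241 FPKM, and CG12343 ends 1 bp beyond RpS15Ab with 9.55 and 9.98 FPKM. CG17272 overlaps the 3' end of RpS20 and had 13.3 and 5.67 FPKM. Opposite-strand sites inside members numbered 0 in replicate 1 and 3 in replicate 2, of which 2 were in RpS29, at 38 and 758 bp, and 1 in RpS20, at 937 bp. The share of all genes with such sites was not counted.

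Among genes that act with the small subunit, 17 of 19 listed initiation and assembly factors were found in the table, with medians of 67.5 and 69.9 FPKM. Highest was Rack1, a scaffold protein bound to the head of the subunit, with 222 and 414 FPKM (318 ± 136, SD, n = 2). Its start was 3 bp inside the annotated end in both lists, like that of RpS13. Trip1, a subunit of initiation factor eIF3, had 83.9 and 57.4 FPKM and a start 4 bp inside in both lists. Of the 17 genes 15 had a site at the end in replicate 1 (88.2%) and 9 in replicate 2 (52.9%), but 5 and 4 of these sites were within 10 bp.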

How the data were processed

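The authors deposited nascent RNA levels in FPKM, per the file headers, with a single RefSeq transcript for each gene, in dm3 per the submitters' processing notes. These notes name CASAVA 1.8.2, Bowtie2 2.1.0 and HOMER 4.7 with no role or settings. The Sample3 and Sample4 columns carry no replicate number and were used as libraries of the GRO-seq group. The authors' start sites came from HOMER in TSS mode for each library, per the file headers, at an FDR of 0.001 and 4-fold over the GRO-seq control and the surrounding 1000 bp. The deposited score column holds a constant, so sites had no score. The headers required 20 reads in replicate 1 and 14 in replicate 2.

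Whole reads were recovered from FPKM times span (99.9% of 1778 and of 1900 low values were whole within 0.1 read) and used for depth and for snoRNA shares. A site was placed at the centre of its interval, 1-based. Levels were compared as log2(FPKM + 1), which understates differences of low genes. With 2 libraries per group and no contrast, no test was made, so shares are set beside those of all genes. Depth recovery and the search for the nearest site were tested on simulated data, whereas the placement at the interval centre was not.

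Members and lists were chosen with earlier results of these data known. Named genes followed a rule: the 6 highest and 4 lowest members, the 4 largest library differences, members with a site in both lists or displaced, sta, and members with an opposite-strand start together with the partner. Further members were named with their values in view. A later RefSeq gene table holds all 31 accessions under the same symbols. Some members enter the counts and medians but are not reported here by name or plotted. Planned motif counts and promoter sequences were not analysed here. Alternatives varied windows, pseudocount, filters, snoRNA reads and left-out libraries. Tools were numpy 2.4.6, pandas 2.3.3, scipy 1.17.1 and, for plots, matplotlib 3.10.9 under Python 3.11.15.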

Additional observations from a re-analysis of the deposited data

How the results depend on the processing

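No paired analysis was possible because the groups that share replicate numbers hold different units, and the level columns carry no number. The planned motif counts were not run. The mean-based median of 454 FPKM over the 31 genes became 515 FPKM over members of at least 1 FPKM in both libraries, 365 FPKM without snoRNA reads and 515 FPKM without RpS10a, RpS10b, RpS15Aa and RpS15Ab. The difference of median log2 levels between members and other genes, 7.37, became 7.94 with a pseudocount of 0.1 FPKM and 5.01 against other genes of at least 1 FPKM in both libraries. With each library left out in turn it was 7.25 to 7.55. The median log2 difference between libraries, 0.14, was 0.48 without snoRNA reads and 0.25 with each library centred on its median. A site at the annotated end in either list was present at 23 members, and at 13 to 22 with each list left out, 13 being the number without replicate 1. Within 5 bp rather than 10 bp of the end lay 11 sites of replicate 1 and 6 of replicate 2. Opposite-strand gene starts within 500 bp numbered 9 rather than 14. Opposite-strand sites numbered 5 within 500 bp and 2 within 300 bp in replicate 1, and 3 and 1 in replicate 2. With the upstream band ended at 300 bp, an alternative chosen after the data were examined, replicate 2 held 0 rather than 1 such sense site. Windows of 50 and 500 bp gave 20 and 27 members with a site in replicate 1, and 11 and 16 in replicate 2. In replicate 1 the members added at 500 bp were those with the upstream sites. In replicate 2 they were RpS10b, with its upstream site, and RpS12 and RpS9, with sites at nested C/D snoRNAs. Depth limits RpS28-like most, which rests on 1 read in Sample3 and 0 in Sample4, and among the 29 transcribed members RpS15Ab, with 28 reads in Sample4.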

Other observations

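Some members lie close together in the genome. RpS12 and RpS4, on the plus strand of 3L, are 17038 bp apart with 5 genes of the table lying wholly between them, and both hold snoRNAs. RpS20 and RpS30, on the plus strand of 3R, are 27477 bp apart with 6 genes between them. RpS16 and RpS24, on opposite strands of 2R, are 32530 bp apart with 7 genes between them. Between the GRO-seq libraries RpS16 was 2.21-fold lower and RpS24 2.36-fold higher in Sample4, and RpS20 was 1.63-fold lower and RpS30 1.93-fold higher. Without snoRNA reads RpS16 was 1.16-fold and RpS20 1.09-fold lower, and RpS12 and RpS4 were both higher in Sample4, by 1.62-fold and 1.67-fold. The 31 genes comprise 9 on 3R, 7 on 2R, 6 on 2L, 4 each on 3L and X, and 1 on chromosome 4.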
